A study of Homo sapiens with 6 samples.

Results

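Cytosolic ribosomal protein genes were examined in A549 cells after knockdown of BAP18, a chromatin-associated protein encoded by C17orf49. A gene was included when its symbol was RPL or RPS followed by a number, with or without A or X, or was RPLP0, RPLP1, RPLP2 or RPSA. Of the 35474 genes listed, 77 met this rule, 31 of the small subunit and 46 of the large subunit, and neither read counts nor fold changes were used to choose them. A549 is an established line of human lung adenocarcinoma cells. Cells received siRNA against BAP18 (siBAP18) or a non-specific siRNA (siCtrl) and were harvested 48 h later, with 3 libraries of poly(A) RNA in each group, which the labels describe as biological replicates. No other agent or allele distinguished the groups per the labels, and which of the BAP18 siRNAs these cells received is not given in the sources used here. The design holds a single cell line and a single time point.

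The ribosome is built from a small and a large subunit, each made of ribosomal RNA and of proteins that are mostly present in a single copy. Cells make the proteins in near-equal amounts, and their mRNAs typically begin with a 5′ terminal oligopyrimidine (TOP) tract, a C followed by a run of pyrimidines, through which mTORC1 and the RNA-binding protein LARP1 control their translation. Several of the proteins are known from disease, since loss of one copy of certain members causes Diamond-Blackfan anemia, and free RPL5 and RPL11 bind MDM2 and so stabilize p53.

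The start regions of the members with the clearest differences are shown here because the TOP tract is the sequence feature the family shares. Each window of 28 bases is from RefSeq on GRCh38.p14, runs 5′ to 3′ on the strand of the gene, and covers 8 bases before the listed transcription start and the first 20 bases of the transcript. Capitals mark the longest run of at least 5 C or T that begins with C within 10 bases of the start. The first 3 genes were lower in siBAP18 cells and the other 5 were higher.
RPL10A: gacatgctagtCTCTTTTCCggttagcg
RPS24: tcgtggttCTCTTTTCCTCCTTggctgt
RPL31: ttcgcgCTCTTCCTTTCCaacttggacg
RPS26: ataacctcgattttCTTCCgccatccgg
RPL11: tccgCTTTCTCTTCCTgctctccatcat
RPS19: ccgtcgttCCCTTTCCCCTggctggcag
RPL36: gcgccagCCCTTCCgccacggccgtctc
RPSA: ccgcctgtCTTTTCCgtgctacctgcag
The windows lie at chr6:35468393-35468420, chr10:78033855-78033882, chr2:101002281-101002308, chr12:56041910-56041937, chr1:23691798-23691825, chr19:41860247-41860274, chr19:5690287-5690314 and chr3:39406712-39406739, all on the + strand. RPS24, RPS19 and RPSA carried a run beginning exactly at the listed start, whereas that of RPS26 was the shortest shown, at 5 bases, and began at base 7 of the transcript. RPL11 and RPS19 have 2 starts in the table, and the one with the longer run is shown.

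Start sequences were found for 62 of the 77 members. On the strand of the gene, the first base of the listed transcript was a C followed by at least 4 C or T in 46 of them (74.2%), against 5.14% of all 27305 genes in the table. Such a run began within 10 bases of the start, on either side, in 57 members (91.9%) and in 38.4% of all genes. A run of at least 8 bases was found there in 49 members (79.0%) and in 11.3% of all genes. Both directions of change are thus represented among members with a TOP run, and a match is a description of the letters in this window.

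Counts per library were between 42094524 and 56548620 in total, and BAP18 was reduced in every siBAP18 library. C17orf49 had 743, 751 and 705 counts in siCtrl cells and 120, 137 and 108 in siBAP18 cells, a log2 fold change of −2.65 (SE 0.111, adjusted p = 7.31e-16, edgeR's quasi-likelihood test). The epithelial keratin KRT8 was between 9223 and 13887 CPM (counts scaled to the TMM-adjusted library size) in all 6 libraries, but its log2 fold change was −0.37. Of 6 epithelial markers, 4 were lower (66.7%) and 1 was higher (16.7%) in siBAP18 cells (median log2 fold change −0.30). All 4 markers typical of A549 were lower (median −0.86). Of the markers of other cell types, 2 were tested and both were lower, at −1.53 and −0.38. Among all genes tested, 25.1% were lower and 24.5% were higher. The part of these markers in the results below was not tested. The alveolar genes SFTPC and NKX2-1 were at most 0.120 and 0.147 CPM in any library. Genes of the mitochondrial genome took 6.86 to 7.43% of counts in siCtrl cells and 5.27 to 6.14% in siBAP18 cells.

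Ribosomal protein mRNA took a similar share of the counts in both groups. The 77 genes held 6.94%, 6.67% and 6.81% of all counts in the siCtrl libraries (replicates 1 to 3), and 7.13%, 6.75% and 7.33% in the siBAP18 libraries. The groups overlapped, with siBAP18 replicate 2 inside the siCtrl range and replicate 3 the highest of the 6 libraries. The mean share was 6.81 ± 0.135% in siCtrl cells and 7.07 ± 0.292% in siBAP18 cells (SD, n = 3). In RNA from a whole culture, a change in the amount of mRNA per cell and a change in the makeup of the culture cannot be told apart, and a share says nothing of the absolute amount.

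The balance of the subunits separated the groups, unlike the total. Counts of small-subunit genes relative to those of large-subunit genes were 0.426, 0.429 and 0.424 in siCtrl replicates 1 to 3 and 0.447, 0.443 and 0.453 in siBAP18 replicates 1 to 3. All siBAP18 libraries lay above all siCtrl libraries, and the mean rose from 0.426 ± 0.00248 to 0.447 ± 0.00518 (SD, n = 3), with no test made of this summed value. Small-subunit genes took 2.03 ± 0.0349% of counts in siCtrl cells and 2.19 ± 0.107% in siBAP18 cells, whereas large-subunit genes took 4.77 ± 0.10% and 4.89 ± 0.185% (SD, n = 3). The large-subunit shares overlapped between the groups, and the small-subunit shares of siCtrl replicate 1 and siBAP18 replicate 2, the nearest libraries, were almost equal.

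**Figure D1:**
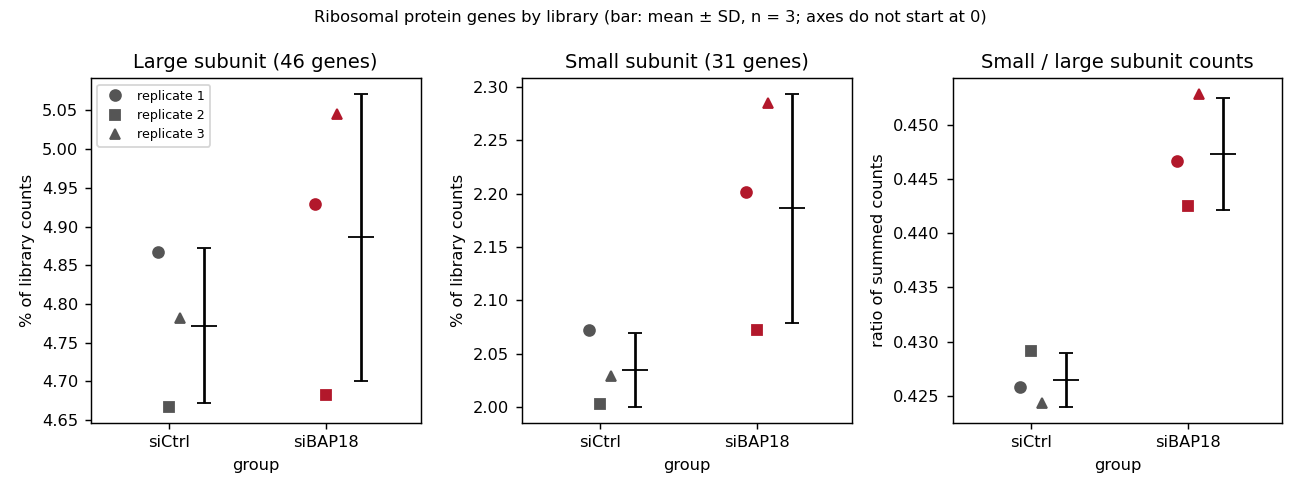
Share of library counts in the 46 large-subunit genes (left), in the 31 small-subunit genes (middle) and the ratio of small to large subunit counts (right) in each library, with the mean ± SD of 3 libraries as a bar; the vertical axes do not start at 0. The large-subunit shares overlap between the groups and the small-subunit shares just do not (highest siCtrl 2.0720%, lowest siBAP18 2.0722%), while the ratio is 0.424 to 0.429 in siCtrl and 0.443 to 0.453 in siBAP18 libraries.

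Every member passed the filter on low counts, and most did not pass the test. Of the 77 genes, 14 were higher and 3 were lower in siBAP18 cells at an adjusted p under 0.05 (edgeR's quasi-likelihood test, adjusted by Benjamini-Hochberg over the 20776 genes tested), and 60 were not called. The share was 18.2% higher and 3.90% lower, where 24.5% of all genes tested were higher and 25.1% were lower, so both shares of the members lay below those of all genes in this fit. The lower share stayed below that of all genes under all 19 alternatives, but the higher share was above it under 6. These were 42.9% against 24.8% without siBAP18 replicate 2, 19.5% against 14.2% with no filter, 13% against 12.3% with limma and no filter, 24.7% against 24.3% with total counts only, 18.2% against 17.2% with the DESeq2 Wald test, and 26.0% against 25.5% with the replicate block. None was past both an adjusted p of 0.05 and a 2-fold change, which 8.46% of all genes tested were. At an unadjusted p under 0.05, 23 members passed, as did 54.9% of all genes tested.

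Differences were small in size. The median log2 fold change of the members was 0.077, against 0.0010 for all genes tested, and the quartiles of the members were −0.010 and 0.14, where those of all genes tested were −0.34 and 0.32. For 75 of the 77 genes the 95% interval of the fold change lay within 1.5-fold in either direction, and RPL10A and RPS26 were the exceptions. The SE of a member was 0.064 to 0.097 on the log2 scale. By subunit, 7 of 31 small-subunit genes were higher and 1 was lower (22.6% and 3.23%, median log2 fold change 0.10). Of the 46 large-subunit genes, 7 were higher and 2 were lower (15.2% and 4.35%, median 0.051). All of these shares lay below the 24.5% and 25.1% of all genes tested.

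**Figure D2:**
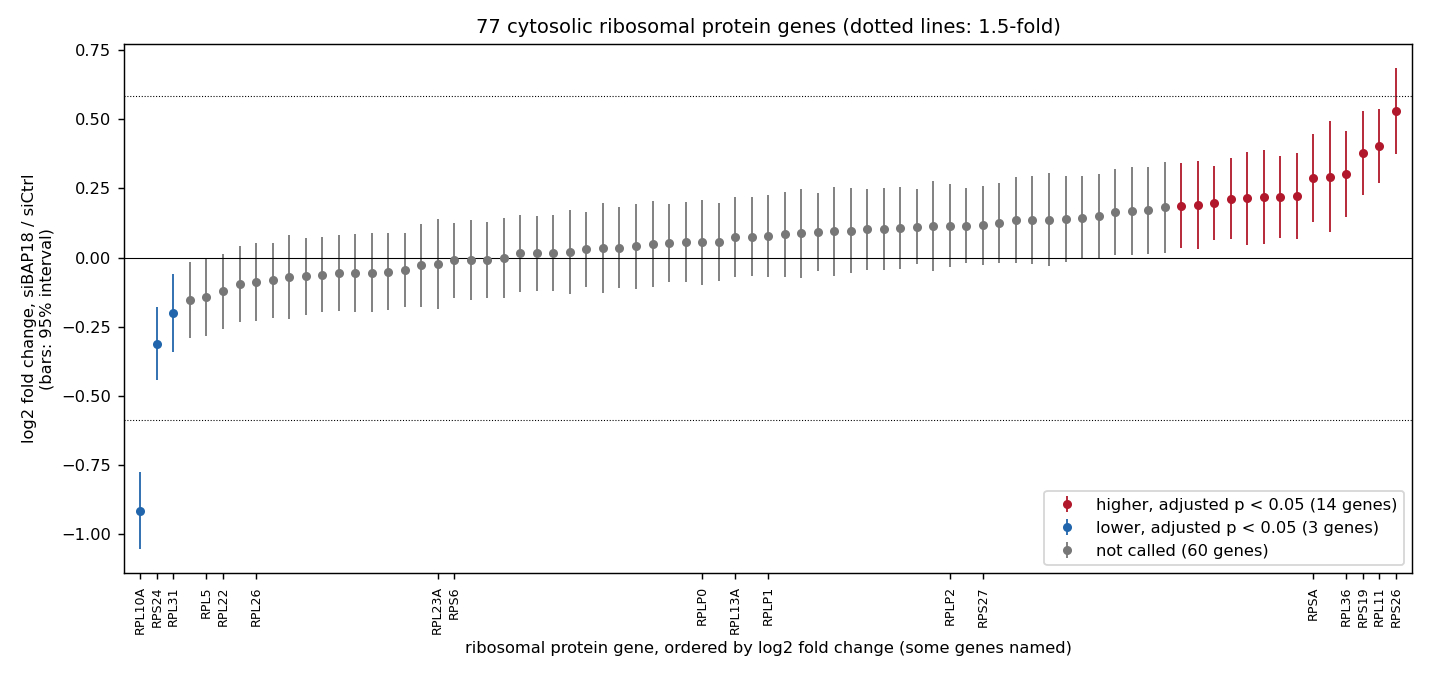
Log2 fold change (siBAP18 relative to siCtrl) of each of the 77 ribosomal protein genes with its 95% interval, ordered by size, with dotted lines at 1.5-fold. Of these genes 14 (red) were higher, 3 (blue) were lower and 60 (grey) were not called, and RPL10A at −0.91 stands apart from the rest.

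In 14 members the 3 siBAP18 values lay above the 3 siCtrl values and in 7 they lay below, which was so for 27.6% and 29% of all genes tested. Of the 17 called members, 14 had groups that did not overlap, and 3 were called with overlap, RPL35 and RPS28 among them. The 7 members that were separated but not called included RPL7, RPL5, RPL22, RPL21, RPL30 and RPS14, with log2 fold changes between −0.15 and 0.18.

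RPL10A, a large-subunit protein of the mobile L1 stalk that guides the departing tRNA, had the largest difference. Its level was 285, 275 and 280 CPM in siCtrl replicates 1 to 3 and 148, 139 and 159 CPM in siBAP18 replicates 1 to 3. Every siBAP18 library was far below every siCtrl library, and the mean fell from 280 ± 5.26 to 148 ± 10.0 CPM (SD, n = 3). The log2 fold change was −0.91 (SE 0.068, adjusted p = 3.60e-11, edgeR's quasi-likelihood test), or 0.531 of the siCtrl level. In counts this was 15164, 12771 and 13080 against 8035, 8119 and 6444. Its exons overlap no other listed gene on chromosome 6 (positions 35468408 to 35470785, + strand). The 3 listed pseudogenes of RPL10A together had 142, 124 and 124 counts in siCtrl and 74, 90 and 62 in siBAP18 libraries, far fewer than the gene and also lower in each siBAP18 library. The gene was called under all 19 alternative settings, with log2 fold changes from −1.03 to −0.87.

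RPS24, a small-subunit protein needed for maturation of 18S rRNA, was the next lower member. It had 612, 597 and 596 CPM in siCtrl cells and 492, 476 and 486 CPM in siBAP18 cells. The groups were far apart and the libraries of each lay close together, so the mean fell from 602 ± 8.90 to 485 ± 7.79 CPM (SD, n = 3). The log2 fold change was −0.31 (SE 0.064, adjusted p = 2.24e-04, edgeR's quasi-likelihood test).

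RPL31, which lies near the exit of the peptide tunnel, was the third. Its level was 489, 481 and 456 CPM in siCtrl and 411, 387 and 442 CPM in siBAP18 libraries. The groups were separated by a narrow gap between siCtrl replicate 3 and siBAP18 replicate 3. The log2 fold change was −0.20 (SE 0.068, adjusted p = 0.0161, edgeR's quasi-likelihood test), and it was called under 15 of 19 alternatives. It lost its call without siCtrl replicate 1, without siCtrl replicate 2, without siBAP18 replicate 1 and with a gene length offset, and its log2 fold change over the alternatives ran from −0.34 to −0.14. An antisense gene, AC016738.4, overlaps its exons with 206 to 344 counts in a library, and RPL31 had 17902 to 25983.

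RPS26, a small-subunit protein at the mRNA exit channel, had the largest rise. It had 71.0, 62.0 and 68.4 CPM in siCtrl cells and 100, 87.0 and 104 CPM in siBAP18 cells. All siBAP18 libraries were above all siCtrl libraries, with replicate 2 the lowest of each group. The mean rose from 67.2 ± 4.63 to 97.0 ± 8.86 CPM (SD, n = 3), a log2 fold change of 0.53 (SE 0.075, adjusted p = 1.87e-06, edgeR's quasi-likelihood test).

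RPL11, a protein of the 5S ribonucleoprotein particle and a partner of MDM2, rose with little scatter. Its level was 275, 260 and 266 CPM in siCtrl and 357, 350 and 353 CPM in siBAP18 libraries. There was no overlap, and the mean rose from 267 ± 7.36 to 353 ± 3.60 CPM (SD, n = 3). The log2 fold change was 0.40 (SE 0.064, adjusted p = 9.71e-06, edgeR's quasi-likelihood test). RPL5, the other protein of that particle, had 2233, 2097 and 2122 CPM in siCtrl and 2043, 1969 and 1830 CPM in siBAP18 libraries. Its libraries did not overlap either but lay on the opposite side, and its log2 fold change of −0.14 was not called (SE 0.068, adjusted p = 0.0844, edgeR's quasi-likelihood test).

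RPS19, the small-subunit protein most often mutated in Diamond-Blackfan anemia, was also higher. It had 719, 687 and 720.5 CPM in siCtrl cells and 918, 823 and 1019 CPM in siBAP18 cells. The lowest siBAP18 library, replicate 2, was above the highest siCtrl library. The log2 fold change was 0.38 (SE 0.074, adjusted p = 1.38e-04, edgeR's quasi-likelihood test).

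RPL36, a small protein of the large subunit, had 199, 193 and 205 CPM in siCtrl and 240, 220 and 277 CPM in siBAP18 libraries, again without overlap. Its log2 fold change was 0.30 (SE 0.075, adjusted p = 0.00157, edgeR's quasi-likelihood test). RPSA, a small-subunit protein also known as the laminin receptor, had 914, 849 and 896 CPM in siCtrl and 1065, 957 and 1225 CPM in siBAP18 libraries. Its groups did not overlap and siBAP18 replicate 3 was the highest. The log2 fold change was 0.29 (SE 0.077, adjusted p = 0.00308, edgeR's quasi-likelihood test).

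The other higher members included RPS28, RPL37A, RPL19, RPS12, RPL35 and RPL27, with log2 fold changes from 0.19 to 0.29. RPS28 was called under 12 of 19 alternatives, and lost its call without siCtrl replicate 3 (0.27), siBAP18 replicate 1 (0.27) or siBAP18 replicate 3 (0.18). It also lost it with the gene length offset, the GC content and length offsets (0.15), limma on log2(RPKM + 0.1) and limma with no filter. RPL35, RPL27, RPL37A, RPL19 and RPS12 were called under 9, 10, 12, 14 and 16 of the 19. Of the 17 called members, 7 were called under every one of the 19 alternatives, namely RPL10A, RPS24, RPS26, RPL11, RPS19, RPL36 and RPSA.

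**Figure D3:**
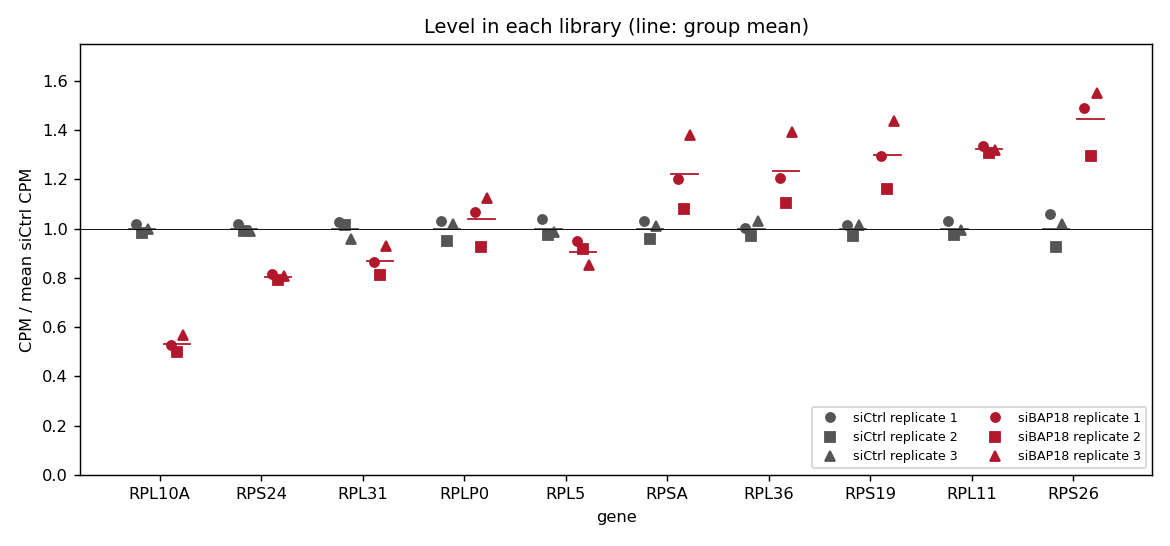
CPM of 10 members in each library divided by the siCtrl mean of the gene, with the group mean as a line. The siBAP18 libraries of RPL10A sit near 0.531, those of RPS26, RPL11 and RPS19 sit above every siCtrl library, and RPLP0 overlaps between the groups.

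The acidic stalk, which recruits the translation factors, did not pass the test. RPLP0 had 2051, 1886 and 2026 CPM in siCtrl and 2119, 1843 and 2233 CPM in siBAP18 libraries, and its groups overlapped. The log2 fold changes of RPLP0, RPLP1 and RPLP2 were 0.055, 0.077 and 0.11, and the 95% interval of RPLP0 was −0.098 to 0.21. RPS6, the substrate of the S6 kinases, had 1988, 1902 and 1965 CPM in siCtrl and 1955, 1852 and 2006 CPM in siBAP18 libraries. These overlapped fully, with a log2 fold change of −0.010 and a 95% interval of −0.15 to 0.13. RPS27, a zinc-finger protein of the small subunit, and RPL22, which also binds viral and cellular RNAs outside the ribosome, had log2 fold changes of 0.12 and −0.12 and were not called. Among the 21 members of the list of Diamond-Blackfan anemia genes, 7 were higher and 2 were lower, with a median log2 fold change of 0.12, which is 33.3% higher and 9.52% lower against 24.5% and 25.1% of all genes tested.

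Levels between genes were compared as RPKM, which divides by the gene length listed by the authors. The siCtrl means spanned a 616-fold range with a median of 183 RPKM. The highest were RPL23A at 2379 ± 89.3 and RPL13A at 1750 ± 6.95 RPKM (SD, n = 3). RPL23A lies at the peptide exit, and RPL13A is also a part of a translational silencing complex. The lowest were RPL35A at 26.5 ± 1.36, RPS28 at 6.36 ± 0.262 and RPS29 at 3.86 ± 0.114 RPKM (SD, n = 3). Between siCtrl and siBAP18 means, the rank correlation of RPKM over the 77 genes was 0.989, over genes that share the same 6 libraries.

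The order of the genes rested in part on the length used. The listed length covers all exons of a gene, with a median of 2982 bases among the members, whereas the annotated principal transcript had a median of 859 bases. RPS29, listed at 9783 bases with a transcript of 296 bases, ranked 77 of 77 by RPKM and 71 by CPM per kilobase of transcript. RPS28 ranked 76 and 77 on those scales, and RPL23A ranked 1 and 2. Only 10 members were among the 100 genes with the highest RPKM. The lowest member count in any library was 610, in RPS28. In each library 74.9 to 77.2% of counts from 1 to 20 were even. If both mates of a pair were counted, which was not tested, the number of independent fragments would be smaller than the counts printed here.

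The siBAP18 libraries scattered more than the siCtrl libraries. The median coefficient of variation of a member was 3.37% in siCtrl and 8.52% in siBAP18 cells. Among siBAP18 libraries, 65 of the 77 members were highest in replicate 3, and the median log2 deviation of the members from the siCtrl mean was 0.063, −0.048 and 0.20 in replicates 1, 2 and 3. In siCtrl libraries the same value was 0.040, −0.040 and 0.012. The number of called members moved with these libraries. Without siBAP18 replicate 2, 33 were higher and 5 were lower, where 24.8% and 25.4% of all genes tested were. Without siBAP18 replicate 3, 8 were higher and 6 were lower, where 24.5% and 24.6% of all genes tested were. Without siCtrl replicate 1, 2 or 3 the number of higher members was 7, 6 and 8 (9.1%, 7.8% and 10.4%). Of all genes tested in those fits, 20.7%, 20.7% and 21.0% were higher. Without siBAP18 replicate 1 it was 9 members (11.7%), against 21.2% of all genes tested.

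Fold changes of the members moved with base composition. The Spearman correlation of log2 fold change with the GC content of the transcript was 0.52 over the 77 members and 0.27 over 20644 of the genes tested, as a description over genes that share the same libraries. Of the 38 members with a GC content above 49.5%, 10 were higher and 2 were lower (median log2 fold change 0.14). Of the 39 others, 4 were higher and 1 was lower (median 0.036). Among all genes tested, whatever their GC content, 24.5% were higher and 25.1% were lower. The same split moved in all genes of the libraries, since the median deviation of GC-rich genes was 0.11, 0.053 and 0.20 in siBAP18 replicates 1 to 3 and that of GC-poor genes was −0.16, −0.11 and −0.24. With offsets for GC content and transcript length, 9 members were higher and 9 were lower (11.7% each). In that fit 26.1% of all genes tested were higher and 24.1% were lower. RPL36 then had a log2 fold change of 0.13 in place of 0.30 and RPS19 one of 0.24 in place of 0.38. Of the earlier calls, 6 of the 14 higher and all 3 lower genes remained, and RPL10A at −1.03 was then past both thresholds. Of the 12 members on chromosome 19, where the median member GC content was 57.4%, 5 were higher and none was lower, and 38.1% of all 1418 genes tested on that chromosome were higher.

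**Figure D4:**
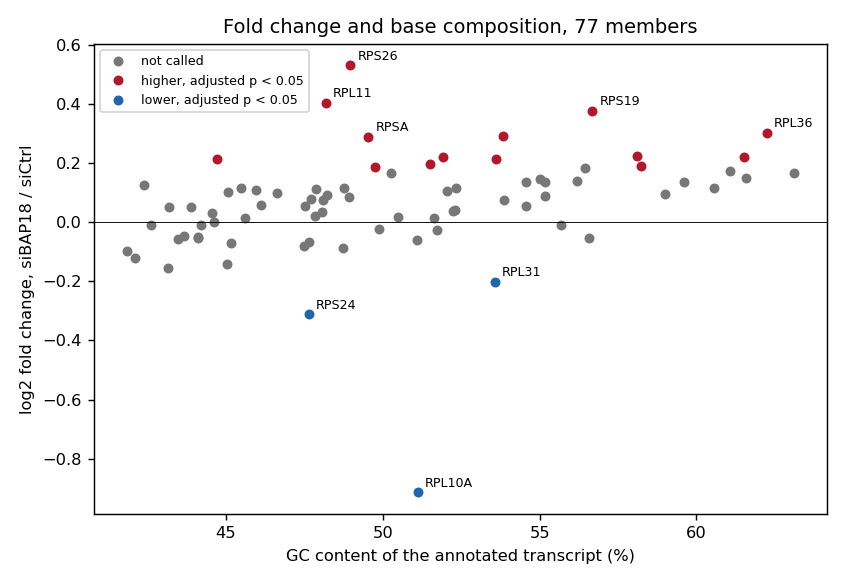
Log2 fold change of each of the 77 members against the GC content of its annotated transcript, in percent. Red and blue points are the higher and lower members; the GC-rich members lie above the others on average (median 0.14 against 0.036), and RPL10A and RPS24 lie away from that trend.

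Exons of 46 members overlap those of another listed gene, 24 of them a small nucleolar RNA and 26 a gene on the opposite strand. The readthrough gene RPL17-C18orf32 had 13949 to 20129 counts in a library where RPL17 had 13961 to 20317, so nearly the same counts stand under both names. RPL36A with RPL36A-HNRNPH2 and RPS10 with RPS10-NUDT3 showed the same, and the values of these 3 members are uncertain. Of the members above with the largest differences, RPL10A, RPS24, RPS26, RPL11 and RPS19 have no such overlap. RPL36 shares 400 of its 2272 exon bases with HSD11B1L on the same strand and 43 with LONP1 on the opposite strand. RPSA shares 151 and 153 of its 3936 with the small nucleolar RNAs SNORA6 and SNORA62. The table also lists 651 ribosomal protein pseudogenes, which held 3.35 to 3.90 counts for every 100 member counts. Of the 230 pseudogenes tested, 14 were higher and 7 were lower (6.09% and 3.04%, against 24.5% and 25.1% of all genes tested). Reads from a gene and a near-identical copy could have been divided between them in counting.

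Ribosomal proteins whose symbols fall outside the rule included the largest change of the wider family. RPL26L1, a paralog of RPL26, had 20.6, 17.3 and 20.6 CPM in siCtrl and 50.3, 47.5 and 48.7 CPM in siBAP18 libraries. The groups were far apart, with a log2 fold change of 1.32 (SE 0.077, adjusted p = 4.32e-13, edgeR's quasi-likelihood test). RPL26 itself, at 2205 ± 45.8 and 2075 ± 121 CPM (SD, n = 3), had a log2 fold change of −0.088 and was not called. RPS27L, a p53-inducible paralog of RPS27, rose by 0.50 on the log2 scale (adjusted p = 5.76e-07, edgeR's quasi-likelihood test), and FAU, which encodes the small-subunit protein eS30 fused to a ubiquitin-like protein, rose by 0.42 (adjusted p = 6.59e-05, edgeR's quasi-likelihood test). RPL7L1, a paralog of RPL7 in pre-ribosomes, was higher by 0.19 on the log2 scale (adjusted p = 0.0373, edgeR's quasi-likelihood test) and kept this call under 10 of 19 alternatives. The call was lost without siCtrl replicate 1 (0.17), siCtrl replicate 3 (0.15), siBAP18 replicate 1 (0.20) or siBAP18 replicate 2 (0.11), and with total counts only, no filter or limma. With GC content and length offsets the log2 fold change of FAU was 0.25. RPL39L, RPL36AL and RPL22L1 had log2 fold changes of 0.15, −0.12 and −0.020 and were not called. Paralogs share sequence with members, so part of their reads may be interchangeable.

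Gene lists of the same pathway moved in different ways. Among 19 other TOP mRNAs of translation factors, 2 were higher and 11 were lower, with a median log2 fold change of −0.19. These were 10.5% and 57.9%, against 24.5% and 25.1% of all genes tested. EIF3E, a subunit of initiation factor eIF3, had a log2 fold change of −0.53, EIF2S3, the gamma subunit of eIF2, one of −0.49, and EIF3F, another eIF3 subunit, one of 0.36. With GC content and length offsets these were −0.25 for EIF3E and 0.22 for EIF3F. The median transcript GC content was 46.4% in this list, 48.5% in the snoRNA hosts and 49.5% in the members. Of the 11 host genes of small nucleolar RNAs that were tested, 7 (63.6%) were higher and none was lower (median 0.22). ZFAS1, a noncoding host gene, rose from 116 to 225 CPM, and SNHG12 and GAS5 had log2 fold changes of 0.95 and 0.51.

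Ribosome assembly factors were higher in 34 of 83 cases and lower in 15 (median log2 fold change 0.14). These were 41.0% and 18.1%, against 24.5% and 25.1% of all genes tested. NOLC1, a nucleolar phosphoprotein that binds snoRNPs, had a log2 fold change of 0.99, UTP20 of the small-subunit processome one of −0.77, and PES1, required for large-subunit rRNA processing, one of 0.76. Of 15 RNA polymerase I genes, 5 were higher and 3 were lower, and of 19 mTORC1 and LARP genes, 4 were higher and 6 were lower. These shares, 33.3% and 20.0% for the first list and 21.1% and 31.6% for the second, stand beside 24.5% and 25.1% of all genes tested. SESN2, an inhibitor of mTORC1 induced by stress, had a log2 fold change of 1.40, RPS6KB1, which encodes S6 kinase 1, one of −0.82 (−0.39 with GC content and length offsets), and AKT1S1, which encodes the mTORC1 inhibitor PRAS40, one of 0.79. Mitochondrial ribosomal protein genes were higher in 45 of 77 cases and lower in 8 (median 0.22), and proteasome genes were higher in 17 of 46 and lower in 6 (median 0.070). These counts stand beside those of the members, and the differences between lists were not tested.

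**Figure D5:**
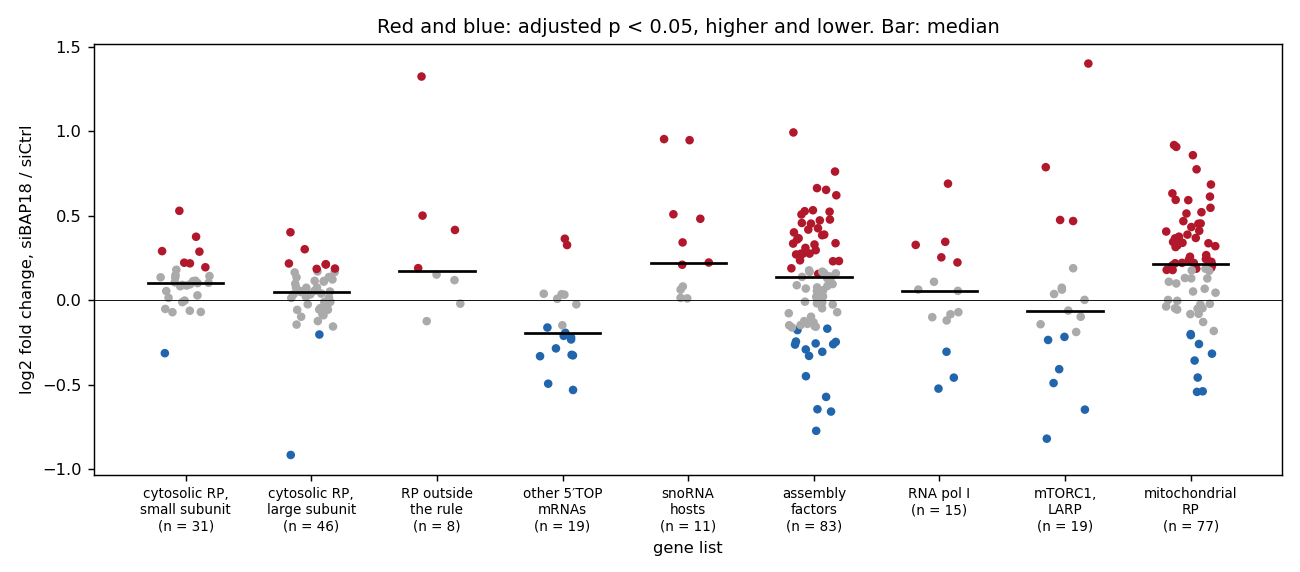
Log2 fold change of each tested gene in the cytosolic ribosomal protein genes and 7 related lists, with the median as a bar and red and blue points for genes higher and lower at an adjusted p under 0.05. The cytosolic genes crowd around 0 apart from RPL10A, the other TOP mRNAs have a median of −0.19 with 2 genes called higher, all snoRNA hosts lie above 0 (median 0.22), and the mitochondrial genes have a median of 0.22 with 8 called lower.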

How the data were processed

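The authors deposited a table of read counts per gene, raw and without normalization, and an RPKM table, which scales those counts by listed gene length and column total. Its layout is that of featureCounts. Poly(A) libraries were strand-specific per the labels, but aligner, counter and use of strand in counting are not given in the sources used here. The submitters' processing notes name hg38 and GRCm38, and 65 of 77 members start at the same position in GENCODE 29 on GRCh38. The table has only genes with at least 1 count in sum, and 74.9 to 77.2% of counts from 1 to 20 were even.

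Counts were tested in R 4.3.3 with edgeR 4.0.16 (filterByExpr, TMM, quasi-likelihood test) and Benjamini-Hochberg adjustment over all genes tested; alternatives used limma 3.58.1, DESeq2 1.42.0, other scaling and filters, a replicate block and each library left out. GC content and length offsets were added after the values were seen. SE was derived from the log2 fold change and its F statistic, and intervals are 95%. P-values set the difference between the 2 groups against the spread of these 6 libraries within their groups. In simulated data of 20449 genes with 98 changed genes that passed the filter at each size, 66 were recovered at a log2 fold change of 0.5 and 89 at 1.5. No 2 replicates were copies. Features came from GENCODE 29 and start sequences from RefSeq with Python 3.11.15.

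Members and lists were chosen with earlier results of these data known. Named members were the 6 largest rises and falls among called genes without overlap, the 3 highest and lowest by RPKM, the stalk and 5S genes, RPSA, RPS6, RPS27 and RPL22, and in other lists up to 3 called genes of smallest adjusted p. RPL26 and the remaining called or separated members were named after their values were seen. Some genes that met these rules are counted in the totals and are not reported here by name.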

Additional observations from a re-analysis of the deposited data

How the results depend on the processing

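The number of higher members was 14 in the reported fit and 6 to 33 with a library left out (33 without siBAP18 replicate 2, 8 without replicate 3), 8 with limma on log2(RPKM + 0.1) and 9 with GC content and length offsets. The number of lower members was 3 and became 2 to 6 with a library left out, 5 with no filter, 5 with the replicate block and 9 with the GC content and length offsets, which also put 1 member past both thresholds. The replicate block gave 20 higher members. Among all genes tested, the higher share was 24.5% in the reported fit and 20.7% to 24.8% with a library left out. It was 24.3% with limma on log2(RPKM + 0.1), 26.1% with the offsets and 25.5% with the replicate block. The lower share of all genes was 25.1% in the reported fit and 21.3% to 25.4% with a library left out. It was 15.1% with no filter, 26.5% with the replicate block and 24.1% with the offsets. Deviations from the group mean had r of 0.067, 0.23 and 0.11 between libraries numbered 1, 2 and 3. For each siBAP18 library this was the highest r with any siCtrl library. However, siCtrl replicate 1 was slightly nearer to siBAP18 replicate 3, at 0.072. Whether the numbers pair the libraries was not settled by these low values, and the reported fit does not use pairing. The median of the members stayed positive under all 19 alternatives, from 0.014 to 0.13.

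Some members near 0 changed sign. With GC content and length offsets, RPS6 was 0.11, RPL13A −0.066, RPLP0 −0.090, RPLP2 −0.054, RPL22 0.016, RPL36AL 0.0034 and RPL22L1 0.098. With upper-quartile scaling RPS6 was 0.00022. With a library left out, RPS6 ran from −0.034 to 0.021, RPLP0 from −0.0030 to 0.13, RPL22L1 from −0.071 to 0.026 and RPL23A from −0.12 to 0.049. None of these genes was called in the reported fit, and the cause was not tested.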
